A study of Drosophila melanogaster with 2 samples.

Results

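Core promoter summits of single genes are the positions at which the tagged protein encoded by CG15812 peaked within 100 bp of the transcription start site (TSS) of a protein-coding gene with no oppositely oriented neighbour at the same place. They were chosen by the signal and the summit position that the authors deposited for the 2 replicates pooled, the signal being the authors' own score of a region, in a unit not given in these sources. Regions were ranked by signal over 2L, 2R, 3L, 3R, X and 4. The 300 strongest were set aside, as were all regions below the authors' irreproducible discovery rate (IDR) threshold, which is also a rank in this list. Of the 2586 regions between these limits, 2528 lay on the first 5 arms. Of these, 921 had a summit within 100 bp of a protein-coding TSS. Of these 921, 293 were left out because TSSs of 2 protein-coding genes on opposite strands lay within 500 bp. The remaining 628 summits, called members below, of 29997 regions in the pooled list, sat at 611 genes, of which 17 had 2 such summits and none had more. Signal and position, having been used for the choice, are described below without a test.

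The immunoprecipitated chromatin came from intact embryos of Drosophila melanogaster aged 0 to 24 h, male and female together, of a stable transgenic line that expresses the CG15812 product with GFP at its C terminus. Both samples, biological replicates 1 and 2, carry this transgene and form 1 group, and no untagged or untreated group was analysed here. A description in the labels calls both samples an input control, whereas their assay title, antibody entry and separately listed control mark them as ChIP samples; they were used as ChIP samples. The antibody entry reads pfk, the labels' name for the tagged product, which is distinct from the glycolytic enzyme Pfk. As whole embryos were used, the number of cells with bound chromatin and the strength of binding per cell cannot be told apart. A core promoter is the stretch of DNA around a TSS on which RNA polymerase II assembles. In Drosophila, core promoters of broadly used genes often carry the DNA replication-related element (DRE), bound by DREF, or Motif 1, bound by M1BP. Those of ribosomal protein genes start in a pyrimidine tract called the TCT element, and those of many developmental genes carry GAGA elements, TATA boxes or an Initiator.

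The following promoters have summits of high signal and carry the elements that the descriptions below turn on. They are not the strongest for every element: CG8204 with GGAACG and Alg3 and Orp8 with a DRE, of higher signal, are not shown. Each printed promoter is given 5′ to 3′ in the direction of transcription, from 80 bp upstream to 20 bp downstream of the TSS. The sequences are from the RefSeq Release 6 genome (dm6), each with the element of its set in capitals. The summits of Nca at -92 bp and tai at -98 bp lie outside the printed stretch, and tai's region overlaps one of the 300 strongest. The first 3 hold GGAACG, here on the strand opposite to the gene, so that it reads CGTTCC; the next 3 are ribosomal protein genes with a TCT element; then follow 2 with a DRE, 2 with Motif 1 and 2 with GAGAG.
CG15771 (chrX:5755668-5755768, plus strand): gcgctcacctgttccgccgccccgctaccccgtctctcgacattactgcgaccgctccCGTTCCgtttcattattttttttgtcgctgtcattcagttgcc
Dph4 (chr3R:5623131-5623231, minus strand): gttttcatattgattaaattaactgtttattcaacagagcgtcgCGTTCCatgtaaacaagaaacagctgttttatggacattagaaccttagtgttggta
bru3 (chr3L:13803380-13803480, minus strand): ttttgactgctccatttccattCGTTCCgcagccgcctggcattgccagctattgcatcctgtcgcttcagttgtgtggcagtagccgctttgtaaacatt
RpS4 (chr3L:13041721-13041821, plus strand): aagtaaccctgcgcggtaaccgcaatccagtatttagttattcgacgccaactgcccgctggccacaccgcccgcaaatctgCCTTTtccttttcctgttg
RpL23A (chr3L:1668634-1668734, minus strand): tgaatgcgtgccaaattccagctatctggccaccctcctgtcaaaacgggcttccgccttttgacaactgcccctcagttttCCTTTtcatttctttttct
RpL8 (chr3L:2587376-2587476, plus strand): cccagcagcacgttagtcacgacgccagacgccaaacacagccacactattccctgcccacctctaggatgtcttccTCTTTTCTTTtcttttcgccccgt
Nca (chr3L:19991807-19991907, plus strand): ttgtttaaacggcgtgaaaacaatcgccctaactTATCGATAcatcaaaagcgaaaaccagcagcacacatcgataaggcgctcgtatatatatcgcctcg
eEF1gamma (chr3R:29220092-29220192, plus strand): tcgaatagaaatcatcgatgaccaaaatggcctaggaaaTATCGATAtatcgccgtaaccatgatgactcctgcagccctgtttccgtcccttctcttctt
RpL30 (chr2L:19009217-19009317, minus strand): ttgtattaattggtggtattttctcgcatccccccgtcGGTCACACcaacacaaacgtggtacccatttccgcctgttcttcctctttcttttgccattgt
Polr3A (chrX:15762876-15762976, plus strand): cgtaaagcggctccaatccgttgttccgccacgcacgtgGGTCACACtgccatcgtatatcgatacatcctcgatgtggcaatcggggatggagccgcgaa
CG41128 (chr3R:3750283-3750383, plus strand): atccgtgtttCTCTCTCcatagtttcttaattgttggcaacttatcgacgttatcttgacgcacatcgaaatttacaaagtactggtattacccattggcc
tai (chr2L:9176278-9176378, plus strand): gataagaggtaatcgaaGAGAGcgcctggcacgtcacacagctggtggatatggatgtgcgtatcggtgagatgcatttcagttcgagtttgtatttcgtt

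The window searched in every promoter ran from 100 bp upstream to 50 bp downstream of the TSS nearest to the summit. The same window at all 10240 single-gene promoters, taken at 1 canonical TSS per gene, served as the background. GGAACG on either strand was in 61 of 628 member windows (9.71%, Wilson 95% interval 7.64 to 12.3%) and in 4.58% of all single-gene promoters. Single-gene core promoter summits of the 300 strongest regions held it in 58 of 115 windows (50.4%), and those of regions below the IDR threshold in 149 of 2872 windows (5.19%, 4.44 to 6.06%). None of the differences between these classes was tested, here or below. The members thus lay between the strongest and the weaker summits, much nearer to the weaker ones. Around the member summits themselves, 56 of 628 windows reaching 50 bp to each side held GGAACG (8.92%, 6.93 to 11.4%), against 24 of 1256 windows of the same size centred 400 bp to either side (1.91%, 1.29 to 2.83%). These intervals cover counting error only, and the 2 flank windows of a summit share its locus. The contrast was not particular to GGAACG. The DRE was in 28 of 628 summit windows (4.46%) and 10 of 1256 flank windows (0.796%), and Motif 1 in 29 (4.62%) and 2 (0.159%). Of the elements searched on both strands, only the Zelda element, described below, was less frequent around the summits than in the flanks.

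GGAACG also lay closer to the summit than it did at weaker promoters. Within 160 bp of the summit 97 members had a GGAACG, and the centre of the nearest copy was within 25 bp of the summit in 36 of them (37.1%) with a median distance of 36.5 bp. Below the IDR threshold it was within 25 bp in 64 of 278 (23.0%), with a median distance of 58.5 bp. Among the 60 members with the element on 1 strand of the TSS window, 36 carried it on the strand opposite to the gene (60.0%, 47.4 to 71.4%), as in CG15771, Dph4 and bru3 above. The same strand held it in 42 of 55 windows of the 300 strongest (76.4%, 63.7 to 85.6%), in 66 of 148 below the IDR threshold (44.6%, 36.8 to 52.6%) and in 234 of 463 of all single-gene promoters (50.5%, 46.0 to 55.1%). The members' interval covers an even split.

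The element went with high rank among the members. Split by pooled signal into 4 groups of 157, from strongest to weakest, the windows held GGAACG in 28, 13, 8 and 12 cases, which is 17.8% in the strongest group and between 5.10% and 8.28% in the others. The 61 members with it had a median signal of 254 and the 567 without it one of 180.3, in the authors' units. The member of highest signal that held it was CG8204, a gene whose summit was also the strongest of all members. A count of all 6-mers around summits put the same element first. It is not independent support, since the elements were chosen with earlier results of these data known. Of 761 6-mers found in at least 5% of the windows of either class, CGTTCC, the reverse complement of GGAACG, had the highest ratio of members to summits below the IDR threshold at 2.31. CGGAAC at 2.15 and CCGGAA at 2.12 came next, and CGGAAC overlaps GGAACG by 5 letters where a C precedes it. At the other end were AAGCCA at 0.53, CGCGAG at 0.55 and ACTAAA at 0.56.

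**Figure D1:**
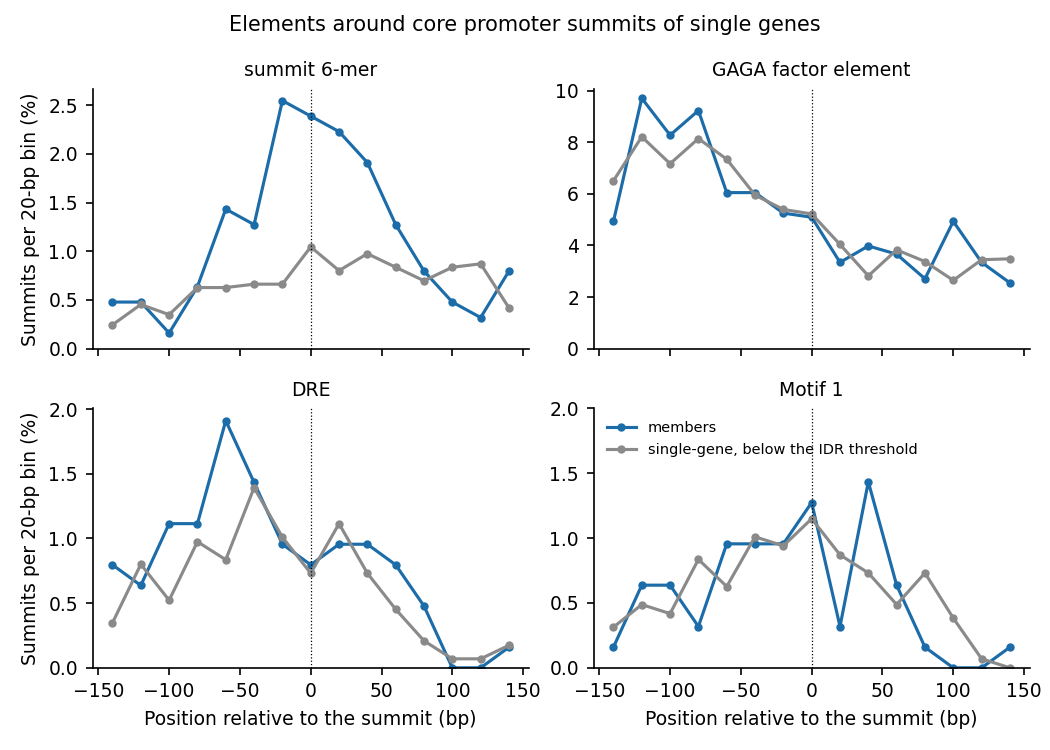
Position of 4 elements relative to the summit, as the percent of summits with an element centred in each 20-bp bin, for members (n = 628) and single-gene core promoter summits below the IDR threshold (n = 2872). The summit 6-mer, GGAACG, gathers within about 50 bp of the member summits, while the GAGA factor element lies mostly upstream of the summit in both classes.

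The DRE (TATCGATA, the same on both strands) was in 58 member windows (9.24%, 7.21 to 11.8%), against 4.96% of all single-gene promoters and 7.45% below the IDR threshold. Within the members it was more frequent at high rank, with 24, 13, 13 and 8 windows from the strongest to the weakest group. The 300 strongest regions, however, held the DRE in 11 of 115 windows (9.57%), near the share of the members, unlike GGAACG. Of the 58 member windows 10 were at ribosomal protein genes. The 2 members of highest signal with a DRE were Alg3, a mannosyltransferase of N-glycan assembly, and Orp8, an oxysterol-binding protein relative. The nearest DRE had a median position of -43.5 bp relative to the summit. Within 160 bp of the summit 69 members had a DRE, and in 31 of them it was within 50 bp (44.9%). In eEF1gamma, shown above, the summit was at 2 bp and the DRE started at -41 bp relative to the TSS. Motif 1 (GGTCACAC, both strands) was in 48 windows (7.64%), against 4.42% of all single-gene promoters and 7.59% below the IDR threshold. It lay on the gene's own strand in 35 of 48 members (72.9%) and in 370 of 447 single-gene promoters with it on 1 strand (82.8%). RpL30 and Polr3A, which encodes the largest subunit of RNA polymerase III, were the members of highest signal with Motif 1.

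Other elements of broadly used promoters were present at shares close to those of weaker summits. The E-box CAGCTG was in 91 windows (14.5%), with 9.84% of all single-gene promoters and 14.3% below the IDR threshold. Ohler 6 (GTATATTT or GTATTTTT) was in 45 (7.17%, background 5.68%), Ohler 7 (CATCNCTA) in 33 (5.25%, background 3.12%) and Ohler 8 (GGCAACG or GGCAGCG) in 67 (10.7%, background 6.98%), each on either strand. Below the IDR threshold these 3 were in 5.57%, 4.84% and 10.9% of windows. The members of highest signal with Ohler 6 were RpS4 and RpL24, with Ohler 7 CG3106 and RpL27, and with Ohler 8 l(3)neo38 and SK, which encodes a calcium-activated potassium channel. The sequences searched share no full match with each other, although matches of different elements can overlap in a window.

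Elements of developmental promoters were mixed. GAGAG, on either strand, was in 184 windows (29.3%, 25.9 to 33.0%), against 20.3% of all single-gene promoters, 30.7% below the IDR threshold and 17.4% of the 300 strongest. The background has 1 TSS per gene, whereas member windows lie at the nearest of all annotated TSSs. With members also chosen at 1 TSS per gene, their share was 24.1%. By rank, GAGAG was in 32 windows of the strongest 157 members (20.4%) and in 51, 51 and 50 of the other groups of 157. The members of highest signal with it were CG30015 and CG41128. The TATA box (TATAAA, gene strand, searched from 40 to 15 bp upstream of the TSS) was in 23 windows (3.66%, 2.45 to 5.44%), against 9.3% of all single-gene promoters and 4.21% below the IDR threshold; CG8204 and emc, which encodes a helix-loop-helix inhibitor, carried it at highest signal. The Initiator (TCAGTT or TCAGTC, gene strand, within 10 bp of the TSS) was in 70 windows (11.1%), close to the background of 11.7%, while summits under the IDR threshold held it in 16.2%, with CG30015 and qtc at highest signal. The Zelda element CAGGTAG, bound by the activator of the early embryonic genome, was in 1 window, that of CG14561 (0.159%, 0.028 to 0.896%), with a background of 0.879%. The TCT element (CCTTT or TCTTT, gene strand, within a few bases of the TSS) was in 17 windows (2.71%, 1.70 to 4.29%), against 1.3% of all single-gene promoters. It was in 3.48% of the 300 strongest and 1.18% below the IDR threshold. Of the 17 windows 11 were at ribosomal protein genes, and the other 587 members held it in 1.02%, under the background.

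**Figure D2:**
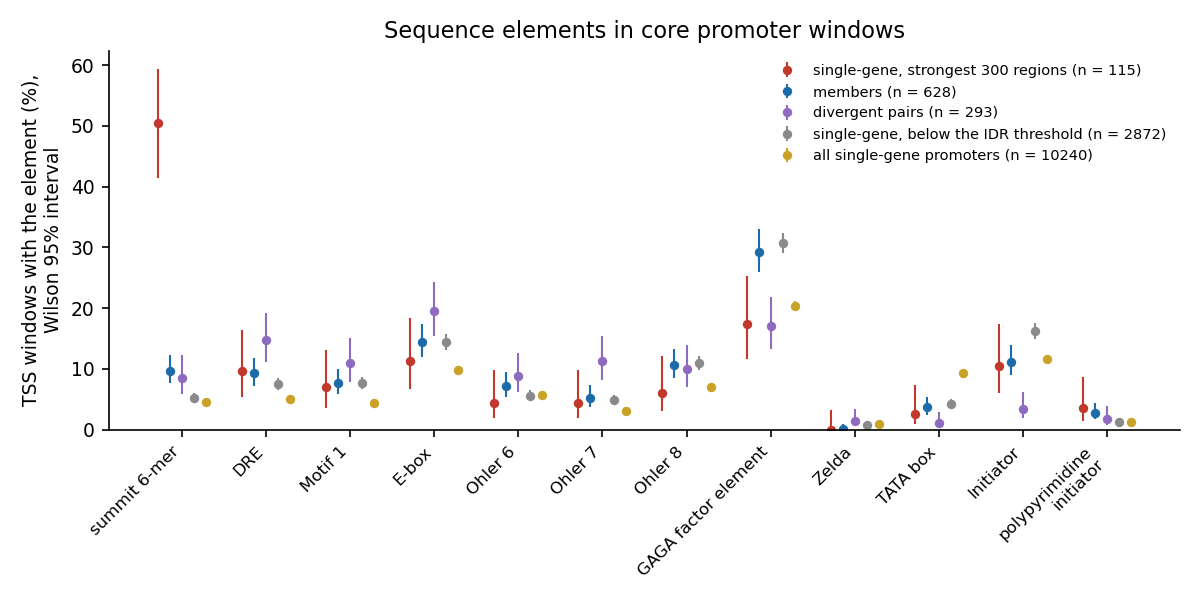
Percent of TSS windows with each of 12 elements (points) with Wilson 95% intervals (bars), for single-gene core promoter summits of 3 rank classes, summits at divergent pairs and all single-gene promoters. The summit 6-mer is GGAACG and the polypyrimidine initiator is the TCT element. The 6-mer stands at 50.4% among the 300 strongest and at 9.71% in the members, while the TATA box stands at 3.66% in the members and 9.3% in all single-gene promoters.

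At least 1 of the 12 elements was in 448 windows, and 180 windows (28.7%) held none. One element was in 255 windows, 2 in 144, 3 in 43, 4 in 4 and 5 in 2. GAGAG and the Initiator shared 34 of their 184 and 70 windows, and GGAACG and GAGAG 21 of their 61 and 184. GGAACG and the E-box shared 14 of their 61 and 91, and Motif 1 and Ohler 6 shared 13 of their 48 and 45. Frequent elements share windows by frequency alone, and these counts were not set against an expected count or another class. Nor was the share of windows with no element. Summits at the 180 windows with no element lay farther upstream, with a median position of -36.5 bp relative to the TSS, against -14 bp where any element was present.

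Within the 100 bp that the rule allows, most member summits lay upstream of the TSS. The median position was -18 bp (quartiles -55 and 14.25 bp), a value that moves with this limit, to -9 bp at 50 bp and -36 bp at 200 bp. Upstream of the TSS lay 404 of 628 (64.3%, 60.5 to 68.0%), 5 fell on the TSS, and 219 (34.9%) were within 25 bp of it. At the 300 strongest regions the median was -37 bp with 80.9% upstream (72.7 to 87.0%), at divergent pairs -30 bp with 78.8% upstream, and below the IDR threshold -9 bp with 56.0% upstream (54.2 to 57.8%). Position therefore shifted downstream from the strongest class to the weakest, with the members between. Among the members, those with a GAGAG had a median of -8 bp and those without it -24 bp; those with an Initiator had -3.5 bp and those without it -21 bp; those with a TCT element had 2 bp.

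**Figure D3:**
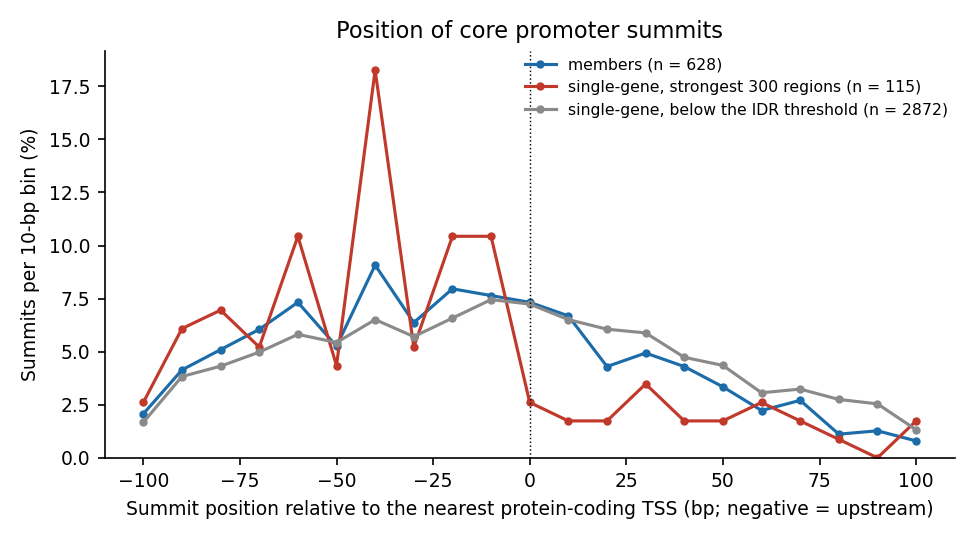
Summit position relative to the nearest protein-coding TSS (bp, negative is upstream) as the percent of summits per 10-bp bin, for single-gene core promoter summits in 3 rank classes. Members rise to their highest bin near -40 bp and fall off downstream of the TSS, and the 300 strongest lie more to the left than summits below the IDR threshold.

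Cytoplasmic ribosomal protein genes were the most frequent group. A member summit was at 611 of 13865 protein-coding genes on the 5 arms, or 4.41%, and at 41 of 92 cytoplasmic ribosomal protein genes (44.6%, 34.8 to 54.7%). This share depends on the divergent-pair rule, at 72.8% with such pairs kept and 26.1% with pairs within 1000 bp left out. Of the other ribosomal protein genes, 5 had a single-gene core promoter summit among the 300 strongest regions. A further 29 had a summit at a divergent pair. Another 2 had a different peak past the IDR threshold, 12 only a region of lower rank and 3 none. Over all 13865 protein-coding genes these counts were 101, 803, 657, 6562 and 5131. Each gene was counted in the first of these classes that it met. Summits at divergent pairs were counted within 500 bp of a TSS of the gene, and other peaks and lower-ranked regions within 1 kb, here and below. The divergent-pair and different-peak classes took any rank past the IDR threshold, so they can hold further summits of the 300 strongest regions. The pooled signal of the 41 ran from 138 to 649 with a median of 315, and that of the other 587 members had a median of 179. RpS4 had signals of 398 in replicate 1 and 252 in replicate 2, RpL24 374 and 282, and RpL31 376 and 224. In these 3 the value of replicate 1 was the higher, as it was in 35 of the 41. It was also the higher at 482 of the 624 members with a summit in both replicates (77.2%). Their summits were also nearer to the TSS, with 27 of 41 within 25 bp (65.9%) against 192 of 587 (32.7%). The called regions were narrower, with a median width of 274 bp against 400 bp. However, 358 of 628 members and 2862 of 2872 regions below the IDR threshold were exactly 400 bp wide. Under 400 bp were 30 of the 41 and 201 of the 587. Whether the contrast reflects this shared width or the binding was not tested.

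The ribosomal protein promoters carried a different mix of elements from the other members. The TCT element was in 11 of 41 (26.8%) and in 6 of 587 other members (1.02%); RpS4, RpL23A and RpL8, shown above, are 3 of the 11. The DRE was in 10 of 41 (24.4%) and 48 of 587 (8.18%), Ohler 6 in 10 of 41 and 35 of 587 (5.96%), and Motif 1 in 7 of 41 (17.1%) and 41 of 587 (6.98%). At least 1 of DRE, Motif 1 and TCT was in 24 of 41 (58.5%) and in 91 of 587 (15.5%). GGAACG was in 3 of 41 (7.32%) and in 58 of 587 (9.88%). GAGAG was in 3 of 41 and in 181 of 587 (30.8%), and no TATA box was found. The 16 ribosomal protein genes that have a single-gene promoter and no member summit held TCT in 3 (18.8%), the DRE in 3, Ohler 6 in 2 and Motif 1 in 1. Having no member summit does not mean unbound, since such genes can carry a stronger or a weaker summit.

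Other parts of protein synthesis had lower shares. No mitochondrial ribosomal protein gene of 73 had a member summit. This allows a share of up to 4.11% by 3 counts and 5.00% by the Wilson bound. The 4.41% background lies between these limits. Of the 73, 12 had a summit at a divergent pair and 46 only a region of lower rank, beside 803 and 6562 of all 13865 protein-coding genes. Translation factors had 9 of 60 (15%, 8.10 to 26.1%), led by eEF1gamma at 595, the ribosome anti-association factor eIF6 at 463 and the elongation factor eEF1alpha1 at 368. Of their 10 summits 4 held a DRE and none a TCT element. Of 33 aminoacyl-tRNA synthetase genes only HisRS was a member, and of 33 ribosome biogenesis genes eIF6 and nop5 were. Hosts of small nucleolar RNAs had 26 of 83 (31.3%, 22.4 to 41.9%), but this list overlaps the ribosomal protein list, and its 3 strongest members, RpS4, RpL30 and RpL11, belong to both.

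**Figure D4:**
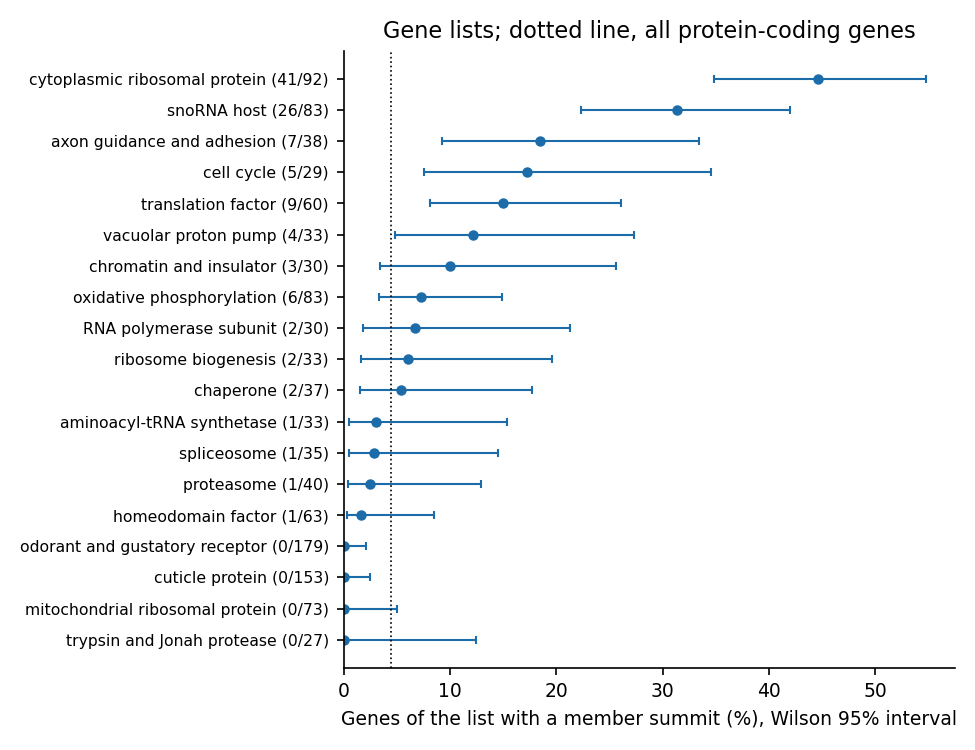
Percent of the genes of each of 19 lists with a member summit (points) and Wilson 95% intervals (bars), with member genes and list size in parentheses. Cytoplasmic ribosomal protein genes stand at 44.6%, and the dotted line marks the 4.41% of all protein-coding genes.

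Lists of other cell functions had few members each. Oxidative phosphorylation genes had 6 of 83 (7.23%, 3.36 to 14.9%), with the complex III subunits UQCR-14 at 265 and UQCR-11 at 259.8 and the complex I subunit ND-20 at 165. Vacuolar proton pump genes had 4 of 33, the strongest being Vha16-1, Vha13 and Vha100-2. RNA polymerase subunits had 2 of 30 (Polr3A and Polr2F) and chaperones 2 of 37 (Hsc70-3 and Gp93, both of the endoplasmic reticulum). The proteasome had 1 of 40 (Rpn10) and the spliceosome 1 of 35 (B52, a serine- and arginine-rich splicing factor), while 10 spliceosome genes had a summit at a divergent pair. Cell cycle genes had 5 of 29 (17.2%, 7.60 to 34.5%), including Orc1 of the origin recognition complex, CycB3, a mitotic cyclin, and E2f1. Chromatin and insulator genes had 3 of 30, namely Su(z)2 and the insulator proteins BEAF-32 and CTCF, with 10 more at divergent pairs. Of all 13865 protein-coding genes, 803 had a summit at a divergent pair. The intervals of the cell cycle and vacuolar proton pump lists lay above the 4.41% background, and those of the other lists just named covered it.

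Member summits were at none of 153 cuticle protein genes (up to 1.96%), none of 179 odorant and gustatory receptor genes (up to 1.68%) and none of 27 trypsin and Jonah protease genes (up to 11.1%). The first 2 limits lie under the 4.41% background and the last does not. In these lists 131, 153 and 16 genes had no region summit within 1 kb of a TSS, as had 5131 of all 13865 protein-coding genes. Of 63 homeodomain genes only caup, of the Iroquois complex, was a member (1.59%, 0.281 to 8.46%, which covers the background). Among the others, 1 had a single-gene core promoter summit among the 300 strongest regions. Another peak past the IDR threshold was at 6, and 48 had only a region of lower rank. Over all 13865 protein-coding genes the counts in these classes were 101, 657 and 6562. Axon guidance and adhesion genes, in contrast, had 7 of 38 (18.4%, 9.22 to 33.4%), led by the semaphorins Sema1a at 757 and Sema5c at 254 and the cell-surface receptor Dscam1 at 240.2. In this list 5 of 7 windows held GAGAG and 3 an Initiator, beside 29.3% and 11.1% of all member windows. All 7 were higher in replicate 1, as were 77.2% of the members with a summit in both replicates. Sema1a's region overlaps one of the 300 strongest regions.

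The 6 members of highest pooled signal belonged to none of the lists. CG8204 had 475 in replicate 1 and 533 in replicate 2, and Alg3 had 521 and 466. CG30015 had 494 and 487, and REPTOR-BP, a bZIP partner of the nutrient-responsive factor REPTOR, had 492 and 473. Orp8 had 491 and 483, and Ugalt, a Golgi UDP-galactose transporter, had 477 and 488. The replicates differed little at these 6, with either one higher. CG8204 had 2 member summits 199 bp apart in 1 called region, at 993 and 268 in the pooled list. The region of REPTOR-BP overlaps one of the 300 strongest, as do those of 15 members in all; 26 overlapped any other peak past the IDR threshold. The part of the neighbouring peak in these signals was not tested.

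The choice left a narrow margin at each limit. By rank, CG8204 at 309 (signal 993) was the first inside and CG12547 at 299 (1030.2) the last above; osp at 2883 (127.9) was the last inside and Mtp at 2889 (127.7) the first below. By distance, Nubpl at 100 bp was inside and Eno and CAH3 at 101 bp outside. By the opposite-strand TSS, CG42613 at 501 bp was inside and E(bx) at 496 bp outside. Over all members the signal had a median of 183, quartiles of 148 and 268 and a range of 128 to 993.

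Nearly all members had a summit in each replicate's own list of regions, from which the pooled list is not independent. Within 200 bp, 627 had one in replicate 1, 625 in replicate 2 and 624 in both (99.4%, 98.4 to 99.8%). The median distance to it was 6 bp in replicate 1 and 14 bp in replicate 2. Signals at these summits ran from 30.8 to 530 with a median of 107 in replicate 1, and from 21.1 to 542 with a median of 85.4 in replicate 2. Replicate 1 was higher at 482 of 624 (77.2%). The log2 ratio of replicate 1 to replicate 2 had a median of 0.33 and an SD of 0.53 over members, beside 0.21 and 0.57 at 1879 other peaks of the same ranks. Across the 624 members, which share both libraries and 1 control alignment, Spearman's rho was 0.651.

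The replicates lay closest at strong summits. The SD of the log2 ratio was 0.37 in the strongest 157 members and 0.46, 0.62 and 0.60 in the following groups of 157. Each replicate list was also read down to as many ranks as there are peaks past the IDR threshold. All of the strongest 157 members were above this rank in each replicate, whereas of the weakest 157 members 105 were so in replicate 1 and 66 in replicate 2. Over all members 411 were so in both, 139 in replicate 1 alone, 65 in replicate 2 alone and 9 in neither. The −log10 q-value stood at the highest value of its list for all 628 members in the pooled list, so it does not rank them, and for 619 members in replicate 1 and 295 in replicate 2. A more than 2-fold difference was seen at 71 members, 67 higher in replicate 1 and 4 in replicate 2. The largest toward replicate 1 were Mpcp2, a mitochondrial phosphate carrier, at 112 and 21.1, Meltrin, a metalloprotease, at 147 and 32.4, and CG9328 at 118 and 30.9. The largest toward replicate 2 were RpS26 at 30.8 and 101, hry, the pair-rule repressor hairy, at 33.5 and 99.8, and tsh, a zinc-finger homeotic factor, at 44.2 and 116. For Mpcp2 the summit in replicate 2 lay 110 bp away and for RpS26 that in replicate 1 lay 91 bp away, so these values may belong to neighbouring maxima.

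**Figure D5:**
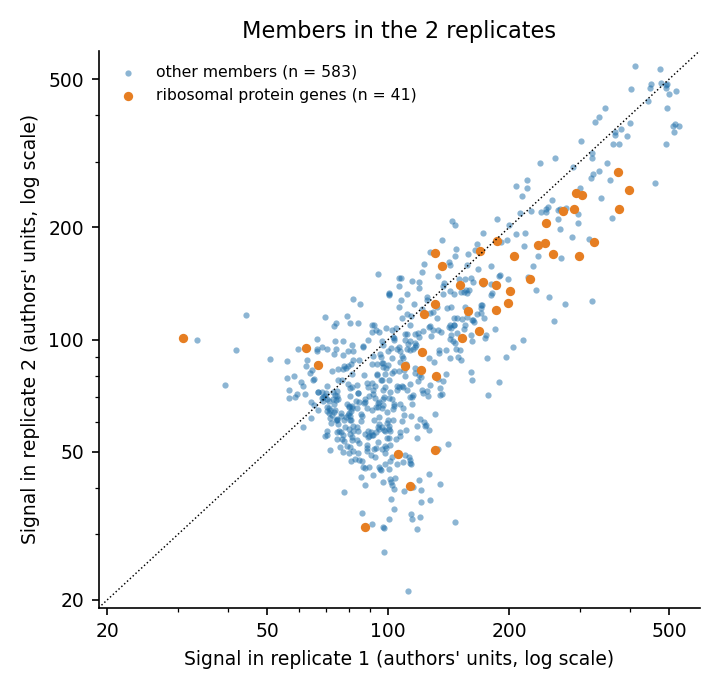
Signal of each member in replicate 1 (horizontal) and replicate 2 (vertical), in the authors' units on log axes, for 41 ribosomal protein genes and 583 other members; the dotted line marks equal values. Points scatter more widely at low signal. Below the line lie 35 of the 41 ribosomal protein genes and 482 of all 624 members shown.

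Member genes were long and often had several starts. Their median length was 5593 bp, against 4898 bp for genes with a core promoter summit below the IDR threshold and 2156 bp for all protein-coding genes. More than 1 TSS was annotated for 339 of 611 (55.5%), against 48.6% and 26.4%, and each further TSS gave a gene another chance to meet the rule. The nearest TSS was the gene's canonical one for 434 of 628 summits (69.1%). Of the 611 genes, 175 (28.6%) had another peak past the IDR threshold in the gene or within 1 kb of it, and 46 had one among the 300 strongest. An opposite-strand TSS of a non-coding gene lay within 500 bp of 31 members, which the rule does not remove. It also keeps 18 members (2.87%) with TSSs of 2 or more protein-coding genes within 500 bp, each counted here for the gene of the nearest TSS. The share of genes with a member ran from 4.09% on 3L and 3R to 4.91% on 2R, with overlapping intervals over the 5 arms. The GC content of the TSS window had a median of 47.0% in the members and below the IDR threshold, and of 42.4% among the 300 strongest and in all single-gene promoters; its part in the shares of elements was not tested.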

How the data were processed

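ChIP-seq of 2 biological replicates of CG15812-GFP embryos was analysed from 4 peak lists on dm6. Per notes of the authors that accompany the lists, relaxed lists of 30000 regions were made for each replicate and for both pooled, against 1 shared control alignment, and another list holds the peaks past an IDR threshold. Aligner, peak caller, threshold and normalization are not given in sources used here, and read depth is unknown. The authors deposited for each region a signal, a −log10 q-value and another column, the summit offset in base pairs. Signal was used to rank and describe regions within a list, and log2 ratios between replicates compare these signals at the nearest summit within 200 bp.

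Summits were placed on Ensembl release 115 (BDGP 6.54) and windows read from the RefSeq Release 6 genome, in Python 3.11.15 with pandas 2.3.3 and scipy 1.17.1. Selection and motif search were tested on simulated data. All results are descriptions without tests. Wilson 95% intervals, and limits of 3 counts for shares of 0, cover counting error only. Genes named are the 6 members of highest signal, those beside each threshold, up to 3 per list, up to 2 per element and 3 of largest replicate difference in each direction; the promoters of Dph4, bru3, RpL8, Nca and tai are printed in addition, chosen after their values were seen. Members, lists and elements were chosen with earlier results of these data known, and the pattern for ribosomal protein names was corrected after the data were seen. Alternatives to the TSS and divergent-pair distances, the ranks, the TSS set, the summits per gene, the windows and the replicates were tried.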

Additional observations from a re-analysis of the deposited data

How the results depend on the processing

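Of 179 values recomputed under alternative settings, 150 stayed the same and 29 moved. The same means within 1.5 times the reported count or within the interval of the reported share or median. A change of sign was possible only for the median summit position, and it did not occur. A TSS distance of 50 bp left 395 members, with a median position of -9 bp, 59.0% upstream and Zelda at 0%. A distance of 200 bp gave -36 bp and 69.3%. Keeping divergent pairs gave 68.9% upstream, GAGAG 25.4%, Initiator 8.69% and 72.8% of ribosomal protein genes. Leaving out pairs within 1000 bp gave Ohler 7 at 3.52% and 26.1% of ribosomal protein genes. A lower rank limit of 1500 left 278 members, with GGAACG at 14.0%, DRE 11.9%, Ohler 8 8.27%, TCT 4.32% and Zelda 0%. With 1 TSS per gene GAGAG was at 24.1%. In windows within 50 bp of the summit DRE was at 4.46%, Motif 1 4.62%, E-box 9.71%, Ohler 6 3.34%, Ohler 7 3.18%, Ohler 8 6.85% and GAGAG 18.0%; these windows are shorter. Summits shared by both replicates fell to 97.6% within 100 bp and 84.9% within 50 bp. Ranks taken from 1 replicate alone gave GGAACG at 9.45 to 12.6% and 525 to 677 members. The alternatives for ribosomal protein genes, and leaving out the 26 members that overlap another peak, were chosen after seeing the data; the latter left 602 members and moved no value. No paired analysis was possible because the 2 replicates form 1 group. The cause of these shifts was not tested. Unknown depth limits any statement on absent signal.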
